A study of Mus musculus with 20 samples.

Results

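Protein kinase C (PKC) is a family of serine and threonine kinases, and 8 of its genes were followed across 5 populations of neural cells sorted from the periventricular zone of newborn mice. The genes were taken by symbol from a table of 45705 genes, and all 8 of them, Prkca, Prkcb, Prkcd, Prkce, Prkch, Prkci, Prkcq and Prkcz, were found there once and passed the filter on low values. They were chosen because earlier results on the same libraries had shown that the isoform in use differed by population, so their levels and differences are given as a description, without a test. The unit is RPKM, a read count scaled to gene length and to the reads of the library, and differences between populations are given on the log2(RPKM + 1) scale.

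PKC isoforms fall into 3 classes by what switches them on. The conventional isoforms (Prkca for PKC alpha and Prkcb for PKC beta) need calcium and diacylglycerol, the lipid that phospholipase C releases when a receptor is engaged. The calcium-independent isoforms (Prkcd for delta, Prkce for epsilon, Prkch for eta and Prkcq for theta) need diacylglycerol alone. The atypical isoforms (Prkci for iota and Prkcz for zeta) respond to neither, and are best known as the kinases of the Par polarity complex, which orients the apical side of radial glia and other epithelial cells. In blood cells, PKC delta is abundant in myeloid cells, PKC beta is central to B cell receptor signalling and PKC theta to T cell receptor signalling.

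The cells came from Swiss Webster pups at postnatal day 5, with all pups of a litter, both sexes, pooled. They were stained for 4 surface antigens, CD133, CD15 (LeX), CD140a and NG2, and sorted into neural stem cells (NSC) and 4 progenitor populations, BNAP/GRP1, GRP2/MP3, GRP3 and PFMP. No mouse carried a transgene or was treated. BNAP stands for bipotential neuronal-astrocytic progenitor, GRP for glial-restricted progenitor, MP for multipotential progenitor, and PFMP for the multipotential progenitor that responds to platelet-derived and fibroblast growth factors, so BNAP/GRP1 and GRP2/MP3 are each a gate that holds a mixture by name. Each population had 4 libraries, numbered by batch from 1 to 4, which gave 20 in all, and a library is named here by population and batch.

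The 5 libraries of batch 3 stood apart from the other 15 and are marked throughout. They resembled each other whatever their population label, with correlations of log2(RPKM + 1) between 0.940 and 0.970 over all genes of the table, and all 5 held high levels of genes of other tissues. Markers of red blood cells summed to between 209826 and 232534 RPKM there against at most 22879 in the other 15, markers of lung epithelium and alveolar macrophages to between 1800 and 2050 against at most 79.5, and markers of oligodendrocyte progenitor cells (OPC) to between 3.13 and 17.9. Ependymal markers, by contrast, were at 1175 RPKM in NSC 3 and at most 5.82 in the other batch 3 libraries. Outside batch 3, the NSC libraries carried 2986 to 13402 RPKM of ependymal markers beside 4146 to 5954 RPKM of astroglial and stem cell markers, so the label NSC covers cells with an ependymal signal. Read counts were estimated from low values and GENCODE exon lengths. By this estimate each member rested on 4.65 to 19.2 reads in BNAP/GRP1 4, the shallowest library, and on 42.6 to 2417 in BNAP/GRP1 3, the deepest. The members' values do not come out as whole reads under this estimate, so the read counts are approximate.

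The genes lie on 8 different chromosomes in the GRCm38 assembly (GENCODE vM21). The conventional Prkca spans chr11:107933387-108343928 on the minus strand and Prkcb chr7:122288751-122634402 on the plus strand. Of the calcium-independent genes, Prkcd spans chr14:30595354-30626210 (minus), Prkce chr17:86167785-86657919 (plus), Prkch chr12:73584796-73778185 (plus) and Prkcq chr2:11172108-11301222 (plus). The atypical Prkci spans chr3:30995747-31052959 (plus) and Prkcz chr4:155260129-155361361 (minus). Exons of Prkca overlap those of Apoh on the opposite strand and exons of Prkce those of AC154542.1 on the same strand, and reads from such a pair may be counted to either gene, while the other 6 members share no exon bases with another gene of the annotation.

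RefSeq start sites (GRCm38.p6) were matched for 6 of the 8 members, with 9 windows among them, and Prkce and Prkch were not matched. The windows of Prkcb, Prkcd and Prkcq are shown because these 3 are, of the 6 matched, those with the most pairs of populations whose ranges did not overlap outside batch 3 (6, 6 and 4 pairs). Each is the 250 bases just before the start site, 5′ to 3′ on the gene's strand, and capitals mark letters searched on both strands: GGGCGG (a GC box, or CCGCCC in reverse), CAGCTG (an E-box, which basic helix-loop-helix factors bind) and GAGGAA (a core of ETS factor sites).
Prkcb, chr7:122288875-122289124, plus strand: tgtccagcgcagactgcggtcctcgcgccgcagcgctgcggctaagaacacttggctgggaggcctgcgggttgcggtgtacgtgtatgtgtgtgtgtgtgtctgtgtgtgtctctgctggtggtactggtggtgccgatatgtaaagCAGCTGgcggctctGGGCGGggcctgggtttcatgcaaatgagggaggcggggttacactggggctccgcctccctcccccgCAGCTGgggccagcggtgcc
Prkcq, chr2:11172132-11172381, plus strand: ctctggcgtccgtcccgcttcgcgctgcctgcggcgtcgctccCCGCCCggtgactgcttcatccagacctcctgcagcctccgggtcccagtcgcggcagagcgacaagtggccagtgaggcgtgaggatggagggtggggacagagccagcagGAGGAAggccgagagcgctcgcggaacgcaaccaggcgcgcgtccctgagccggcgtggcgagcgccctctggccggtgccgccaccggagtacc
Prkcd, outer start, chr14:30626209-30626458, minus strand: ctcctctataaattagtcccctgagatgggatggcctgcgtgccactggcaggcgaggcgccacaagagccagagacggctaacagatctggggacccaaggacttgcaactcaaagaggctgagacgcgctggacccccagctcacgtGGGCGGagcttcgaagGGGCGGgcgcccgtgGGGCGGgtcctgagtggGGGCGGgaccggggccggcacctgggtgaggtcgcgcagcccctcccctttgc
Prkcd, inner start, chr14:30610311-30610560, minus strand: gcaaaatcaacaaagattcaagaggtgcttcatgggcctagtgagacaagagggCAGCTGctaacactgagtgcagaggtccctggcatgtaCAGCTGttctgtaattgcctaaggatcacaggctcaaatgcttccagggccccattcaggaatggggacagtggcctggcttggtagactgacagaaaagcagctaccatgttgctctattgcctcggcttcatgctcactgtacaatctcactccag

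The windows differ in kind. The outer Prkcd window holds 4 GC boxes within 101 bases of the start, 18 CpG and 67.6% G and C, while the inner one, inside the gene, holds no GC box, 1 CpG and 50.8% G and C. The Prkcb window has an E-box at 102 to 97 bases and another at 20 to 15 bases before the start, with a GC box between them, and 17 CpG. The Prkcq window is the richest of these 4 in CpG, with 30, and holds 1 GC box and 1 GAGGAA. Over all 32851 RefSeq windows of this length the median is 6 CpG and 52.4% G and C, and 32.7% hold a GC box, 13.0% a CAGCTG and 23.3% a GAGGAA. None of the 4 windows printed holds the 3 other strings searched, ACAATG (SOX factors), TGACTCA (AP-1) or TGTGGT (RUNX factors), which 10.7%, 4.46% and 14.0% of all windows hold. A match is a run of letters and not a measured site.

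Taken by summed level, PKC transcripts were lowest in NSC. The 8 genes summed to 59.9, 28.4 and 45.6 RPKM in NSC 1, 2 and 4, and to between 148 and 167 RPKM in the PFMP libraries of those batches. GRP3 ran from 88.4 to 170 RPKM, BNAP/GRP1 from 54.2 to 122 and GRP2/MP3 from 66.1 to 156. In batch 3 the sum was alike in the 5 libraries, from 140 in NSC 3 to 152 in GRP2/MP3 3. In bulk libraries such as these, fewer cells of a type and less RNA per cell cannot be told apart.

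Which isoform led depended on the population and, in batch 3, on the batch. Prkcb held the largest share of the summed PKC level in all 3 GRP3 and all 3 PFMP libraries outside batch 3, with 36.6% to 41.3% in GRP3 and 34.7% to 53.3% in PFMP. In GRP2/MP3, Prkcd led in batch 1 (43.8%) and batch 2 (46.7%) and Prkcb in batch 4 (47.4%). The paper names pericytes as a likely contaminant of this gate. Markers of pericytes summed to 7341 RPKM in GRP2/MP3 4, against 514 and 452 in GRP2/MP3 1 and 2. Their part in the isoform levels and shares of that library was not tested. In BNAP/GRP1, Prkcb led in batch 1 (37.0%, just ahead of Prkcd at 35.4%) and batch 2 (43.8%), and Prkcz led in the shallow batch 4 library (21.5%). No single isoform led NSC: Prkci came first in NSC 1 (41.0%), Prkce in NSC 2 (21.3%) and Prkcz in NSC 4 (25.4%). In all 5 batch 3 libraries Prkcd came first, with 65.9% to 69.5%. RPKM is per gene length, so these shares compare genes on a per-length scale. In NSC 1, Prkci at 41.0% and Prkca at 24.3% rested on an estimated 66.6 and 64.0 reads, over 5551 and 8992 exon bases. The amplification favours the 3′ end of transcripts, and its part in the shares was not tested.

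**Figure D1:**
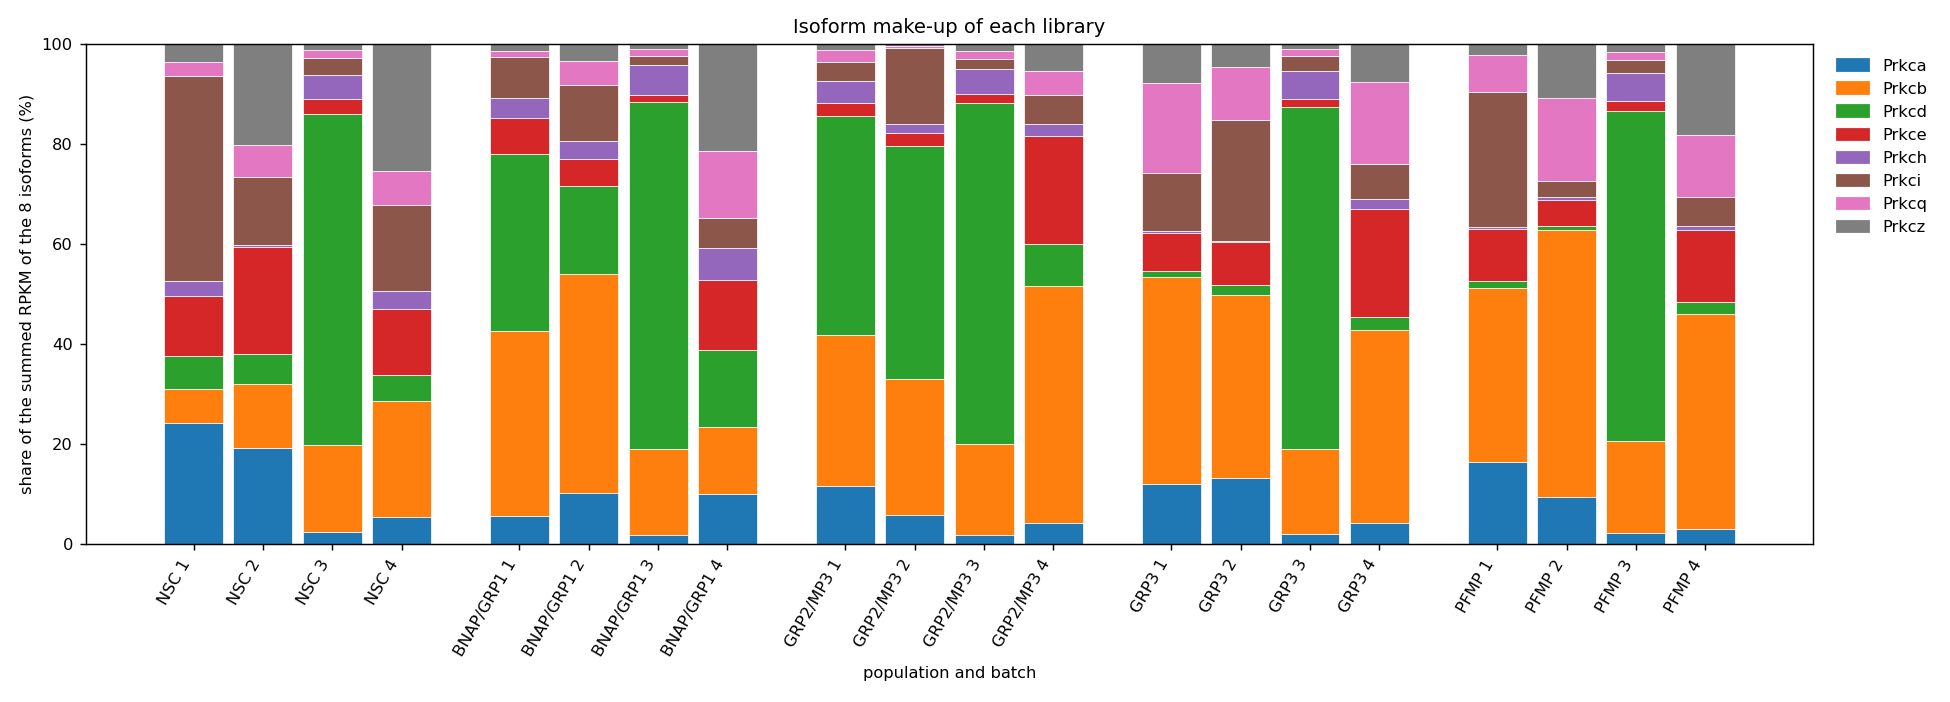
Share of each isoform in the summed RPKM of the 8 PKC genes (vertical axis, percent, bars from 0 to 100) for each of the 20 libraries, grouped by population and numbered by batch. Prkcb (orange) is the largest part of the GRP3 and PFMP bars outside batch 3, and Prkcd (green) fills 65.9% to 69.5% of every batch 3 bar.

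By class, the atypical isoforms made up 33.9% to 44.6% of the PKC level in NSC outside batch 3. They made up 14.2% to 29.1% in PFMP, 14.6% to 28.8% in GRP3, 9.59% to 27.4% in BNAP/GRP1 and 5.14% to 15.5% in GRP2/MP3. The lowest NSC share therefore lay above the highest of every progenitor population. That share is of a sum whose mean was lowest in NSC. In RPKM, Prkci and Prkcz of NSC overlapped every progenitor range, with and without batch 3. The 4 calcium-independent isoforms held 31.3% to 49.1% in BNAP/GRP1 and 37.2% to 53.1% in GRP2/MP3, against 24.4% to 34.1% in NSC, 21.4% to 42.4% in GRP3 and 19.7% to 30.0% in PFMP. Conventional isoforms held 42.9% to 53.4% in GRP3 and 46.0% to 62.9% in PFMP, and 28.7% to 32.0% in NSC. In batch 3 the split was 19.0% to 20.7% conventional, 75.0% to 78.2% calcium-independent and 2.80% to 4.42% atypical in all 5 libraries.

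Of the conventional isoforms, Prkcb was the member whose level separated NSC most clearly. Its RPKM was 4.01, 3.60, 24.3 and 10.6 in NSC batches 1 to 4. It was 45.2, 23.7, 24.5 and 15.6 in BNAP/GRP1, and 19.9, 42.4, 27.6 and 38.2 in GRP2/MP3. The lowest of these progenitor values lay below NSC 3 and above the other 3 NSC libraries. It was 69.6, 62.2, 25.2 and 34.3 in GRP3, and 53.2, 88.8, 26.3 and 63.6 in PFMP. The GRP3 and PFMP ranges did not overlap that of NSC in the 4 batches, a pattern shared by 0.746% and 0.34% of the 27614 genes tested, and without batch 3 no progenitor range overlapped it (4.96%, 3.75%, 8.81% and 4.58% of genes, from BNAP/GRP1 to PFMP in the order above). Without batch 3 PFMP also lay clear above BNAP/GRP1 (2.68% of genes) and GRP2/MP3 (3.79%). The mean was 10.6 ± 9.66 RPKM in NSC and 58.0 ± 25.9 in PFMP (SD, n = 4), or 6.06 ± 3.91 and 68.5 ± 18.3 without batch 3 (n = 3).

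Set against the NSC library of the same batch, Prkcb was higher in every progenitor in all 4 batches. The differences in PFMP were 3.43, 4.29, 0.11 and 2.48 in batches 1 to 4, and those in GRP3 3.82, 3.78, 0.05 and 1.61. In both, batch 3 gave the smallest difference and batches 1 and 2 exceeded batch 4. The fitted difference from NSC was 2.58 ± 0.59 (SE) in PFMP, 2.31 ± 0.59 in GRP3, 1.81 ± 0.59 in GRP2/MP3 and 1.54 ± 0.59 in BNAP/GRP1, and without batch 3 it was 3.40, 3.07, 2.35 and 2.05, each ± 0.62. The order of the means was PFMP, GRP3, GRP2/MP3, BNAP/GRP1 and NSC with or without batch 3, and without it only the step from BNAP/GRP1 to NSC exceeded the spread, in that neighbours' ranges did not overlap.

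Prkca, the other conventional isoform and the most widely expressed of the family, had overlapping ranges in all 5 populations. It was at 14.6, 5.48, 3.37 and 2.53 RPKM in NSC, at 6.83, 5.60, 2.71 and 11.5 in BNAP/GRP1 and at 7.73, 9.16, 2.97 and 3.38 in GRP2/MP3. In GRP3 it was at 20.4, 22.4, 2.94 and 3.70, and in PFMP at 25.3, 15.9, 3.30 and 4.64. The 2 highest libraries of each of the latter populations were those of batches 1 and 2, and the ranges overlapped with and without batch 3. Against the NSC library of the same batch, Prkca differed by 0.46, 1.85, -0.15 and 0.41 in GRP3 and by 0.75, 1.38, -0.03 and 0.68 in PFMP, higher in every batch but batch 3. In batches 1 and 2 both populations also lay above both BNAP/GRP1 and GRP2/MP3. The fitted difference from NSC was 0.64 ± 0.74 in GRP3 and 0.70 ± 0.74 in PFMP (SE), less than 1 standard error.

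**Figure D2:**
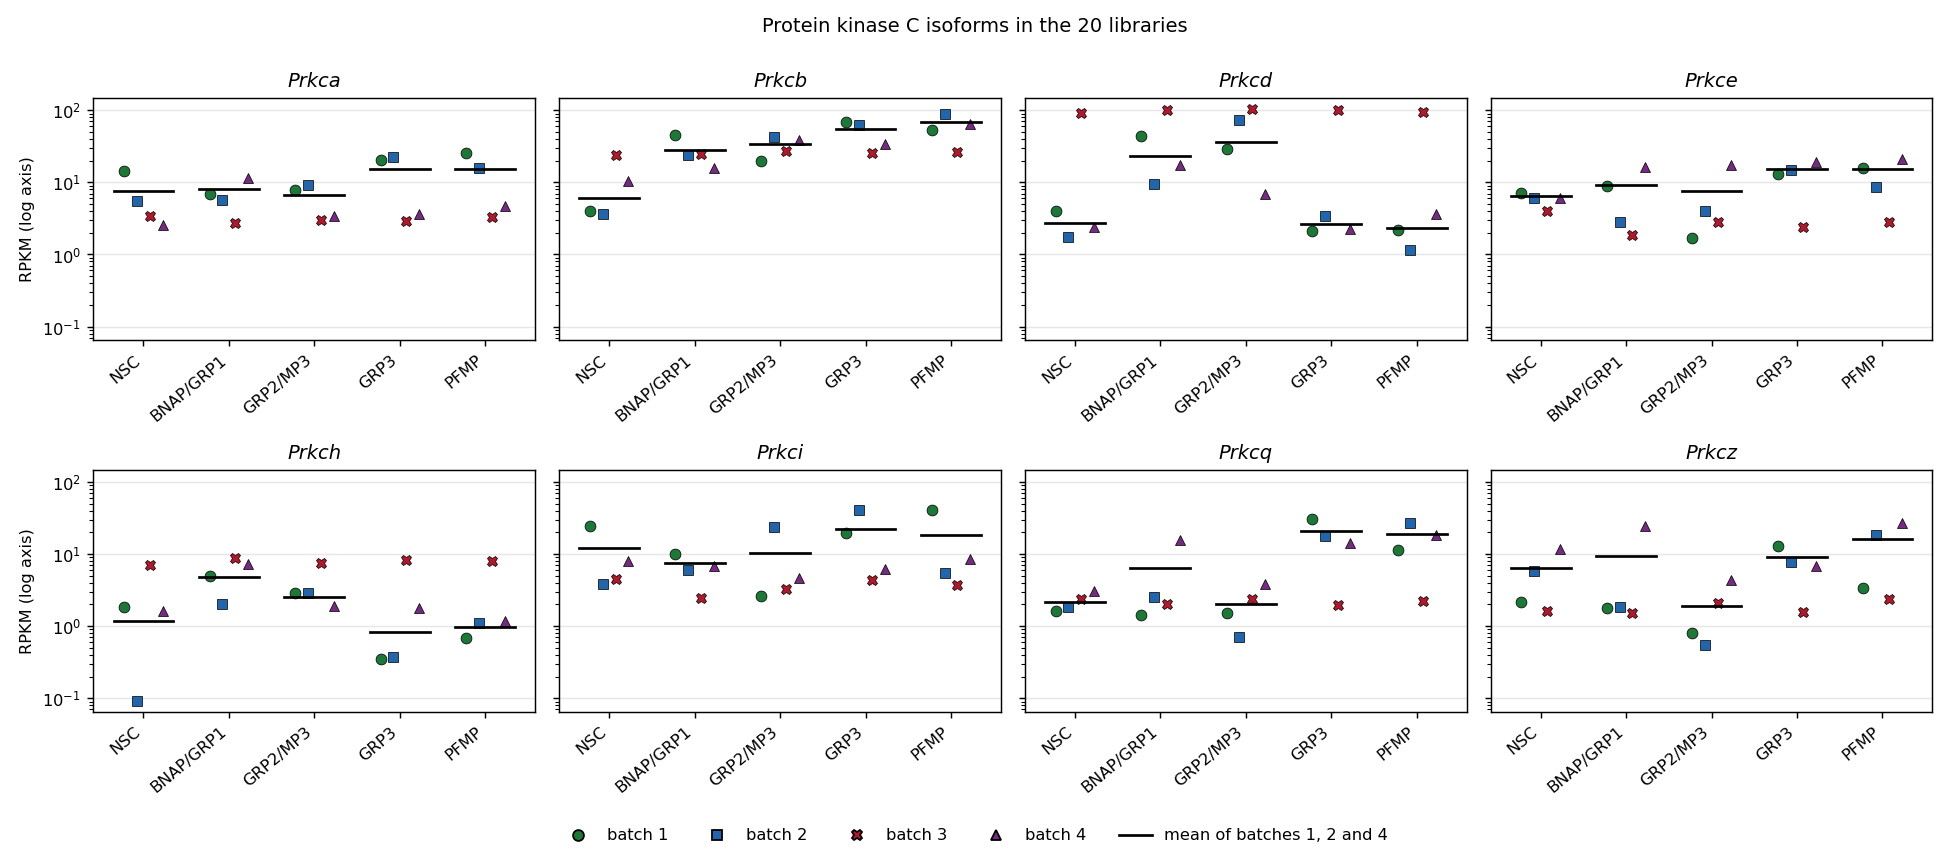
RPKM of each PKC isoform (vertical log axis) in the 5 populations (horizontal axis), 1 point per library with its symbol and colour giving the batch, and a bar at the mean of batches 1, 2 and 4. The red batch 3 crosses of an isoform differ between populations by a ratio of at most 2.14 (Prkce), and lie at 92.5 to 103 RPKM for Prkcd. The other points leave 6 pairs of populations free of overlap for each of Prkcb, Prkcd and Prkch. They leave 4 for Prkcq, 2 for Prkce, 1 for Prkcz and none for Prkca and Prkci.

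Among the calcium-independent isoforms, Prkcd and Prkch were high in the same populations. Prkcd was at 43.3, 9.56, 99.5 and 17.6 RPKM in BNAP/GRP1 batches 1 to 4 and at 28.9, 72.9, 103 and 6.84 in GRP2/MP3. It was at 3.98, 1.73, 92.5 and 2.37 in NSC, at 2.13, 3.43, 100.4 and 2.27 in GRP3 and at 2.19, 1.15, 94.2 and 3.66 in PFMP. Without batch 3, every BNAP/GRP1 and GRP2/MP3 library lay above every library of the other 3 populations, and with batch 3 all ranges overlapped. Of all genes, 4.96% and 3.75% did so in BNAP/GRP1 and GRP2/MP3 over NSC, 3.76% and 3.51% over GRP3, and 7.58% and 7.36% over PFMP. The means without batch 3 were 23.5 ± 17.6 in BNAP/GRP1 and 36.2 ± 33.6 in GRP2/MP3 against 2.69 ± 1.16 in NSC, 2.61 ± 0.711 in GRP3 and 2.33 ± 1.26 in PFMP (SD, n = 3), with the last 3 alike within their spread.

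Within batches, Prkcd exceeded its NSC library in all 4 batches of BNAP/GRP1 (by 3.15, 1.95, 0.10 and 2.47) and of GRP2/MP3 (by 2.59, 4.76, 0.16 and 1.22). The fitted difference was 1.92 ± 1.34 and 2.18 ± 1.34 (SE), and without batch 3 it was 2.52 ± 0.78 and 2.85 ± 0.78, with a smaller standard error. Without NSC 3 alone it was 3.10 and 3.36. In GRP3 and PFMP the difference was 0.03 ± 1.34 and -0.12 ± 1.34, and without NSC 3 alone 1.20 and 1.05.

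Prkch, an isoform of epithelia and lymphoid cells, had the lowest mean of the 8 outside batch 3 in each population but GRP2/MP3. It was at 4.89, 2.02, 8.71 and 7.38 RPKM in BNAP/GRP1, at 2.91, 2.88, 7.42 and 1.90 in GRP2/MP3 and at 1.83, 0.0928, 6.93 and 1.63 in NSC, where the NSC 2 value corresponds to an estimated 0.793 reads. It was at 0.345, 0.368, 8.20 and 1.77 in GRP3 and at 0.691, 1.10, 7.92 and 1.17 in PFMP. Without batch 3 the pairs of populations whose ranges did not overlap were the same 6 as for Prkcd, each found for 3.51% to 7.58% of all genes. For GRP2/MP3 the gap was narrow, with 1.90 in GRP2/MP3 4 beside 1.83 in NSC 1 and 1.77 in GRP3 4. These rested on an estimated 12.9, 6.74 and 11.4 reads. The values of GRP3 1, GRP3 2 and PFMP 1 rested on an estimated 2.30, 1.67 and 1.90 reads. The difference from NSC was 1.12 ± 0.75 in BNAP/GRP1 and 0.63 ± 0.75 in GRP2/MP3 (SE), or 1.40 ± 0.65 and 0.81 ± 0.65 without batch 3. Without NSC 2 alone it was 0.66 and 0.17.

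Markers of microglia were higher in BNAP/GRP1 and GRP2/MP3 outside batch 3, as were these isoforms. The 14 markers summed to between 191 and 9237 RPKM in BNAP/GRP1 and between 902 and 8392 in GRP2/MP3 outside batch 3, against 38.9 to 89.1 in NSC, 28.4 to 49.8 in GRP3 and 22.6 to 154 in PFMP. Within BNAP/GRP1 and GRP2/MP3 the libraries were not ordered alike by markers and by Prkcd. BNAP/GRP1 4 held 191 RPKM of markers and 17.6 of Prkcd, and BNAP/GRP1 2 held 2646 and 9.56. GRP2/MP3 1 held 8392 and 28.9, and GRP2/MP3 2 held 5141 and 72.9. In batch 3 the markers summed to between 2625 and 2932 in every population. None of the 14 was at 0 in any library, and C1qc, C1qb and C1qa had the highest mean levels. Over the 5 batch 3 libraries the markers most particular to microglia were low, with P2ry12 at a mean of 1.20 RPKM and Tmem119 at 0.985, while C1qc was at 681. Without batch 3, 4 of 14 rose past the threshold in BNAP/GRP1 and 10 of 14 in GRP2/MP3 (adjusted p of 0.05, limma with the Benjamini-Hochberg method). Of all genes, 1.16% and 1.82% were called there in either direction, and 0.127% and 0.308% were higher. None of the 14 passed it with all 20 libraries. The part of microglia in the levels of Prkcd and Prkch was not tested.

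**Figure D3:**
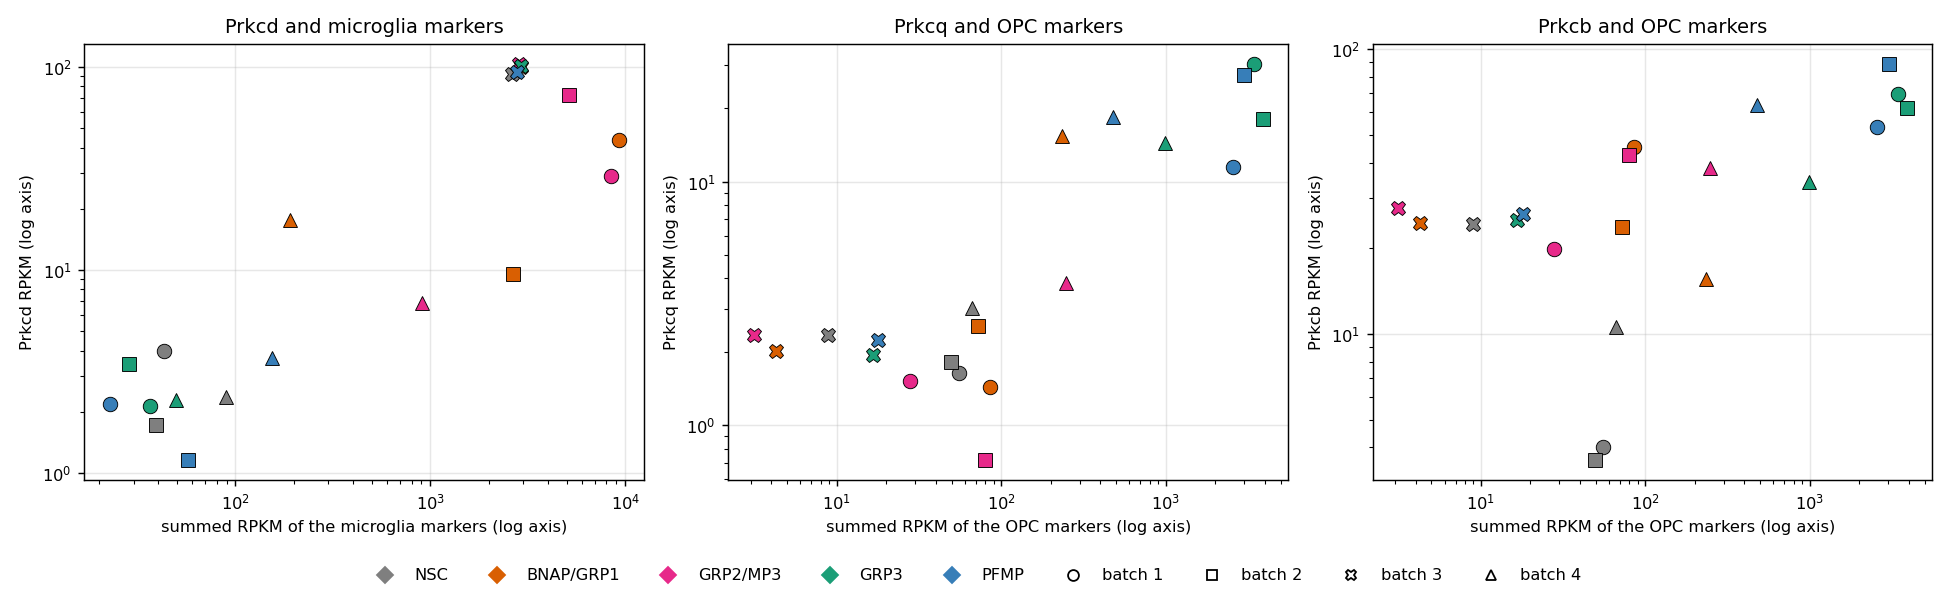
RPKM of Prkcd against the summed RPKM of 14 microglia markers, and of Prkcq and Prkcb against that of 12 OPC markers, on log axes, 1 point per library with colour for population and symbol for batch. The libraries with Prkcd at 6.84 RPKM or more all have at least 191 RPKM of microglia markers, and those with Prkcq at 11.5 RPKM or more all have at least 233 RPKM of OPC markers.

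Prkcq showed the opposite split, high in GRP3 and PFMP. It was at 30.4, 18.0, 1.94 and 14.4 RPKM in GRP3 and at 11.5, 27.3, 2.25 and 18.3 in PFMP. It was at 1.64, 1.82, 2.35 and 3.04 in NSC, at 1.52, 0.717, 2.35 and 3.82 in GRP2/MP3 and at 1.43, 2.56, 2.01 and 15.4 in BNAP/GRP1. Outside batch 3, every GRP3 and PFMP library lay above every NSC and GRP2/MP3 library, as did 8.81% and 4.58% of all genes over NSC and 8.24% and 3.79% over GRP2/MP3. The shallow BNAP/GRP1 4 was the one other library in the GRP3 and PFMP range. The difference from NSC was 2.02 ± 0.78 in GRP3 and 1.95 ± 0.78 in PFMP (SE), or 2.75 ± 0.73 and 2.61 ± 0.73 without batch 3, and by batch it was 3.58, 2.75, -0.19 and 1.93 in GRP3 and 2.25, 3.33, -0.05 and 2.26 in PFMP.

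Prkce, the isoform of this class best known in neurons, followed the same split less sharply. It was at 12.9, 14.6, 2.44 and 19.1 RPKM in GRP3 and at 15.9, 8.74, 2.83 and 21.3 in PFMP, against 7.14, 6.05, 3.97 and 5.98 in NSC. In BNAP/GRP1 it was at 8.87, 2.85, 1.85 and 16.2, and in GRP2/MP3 at 1.72, 3.98, 2.79 and 17.4. Without batch 3 the GRP3 and PFMP libraries lay above all NSC libraries (8.81% and 4.58% of genes) and overlapped those of BNAP/GRP1 and GRP2/MP3. Batch 4 held the highest Prkce of each progenitor population, and within batches 1, 2 and 4 both GRP3 and PFMP lay above both BNAP/GRP1 and GRP2/MP3. The difference from NSC was 0.73 ± 0.75 in GRP3 and 0.70 ± 0.75 in PFMP (SE), or 1.15 ± 0.73 and 1.07 ± 0.73 without batch 3.

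Markers of OPC were highest in GRP3 and PFMP outside batch 3, where Prkcq was high and the mean of Prkcb highest. The 12 markers summed to between 992 and 3900 RPKM in GRP3 and between 480 and 3014 in PFMP outside batch 3, against 49.5 to 66.4 in NSC, 72.4 to 233 in BNAP/GRP1 and 27.9 to 247 in GRP2/MP3. Outside batch 3 none of the 12 was at 0. In batch 3 Matn4, Lhfpl3, Neu4 and Gpr17 were at 0 in NSC 3, up to 5 of the 12 in BNAP/GRP1 3 and GRP2/MP3 3, and Neu4 alone in GRP3 3 and PFMP 3. Pdgfra and Cspg4, which encode CD140a and NG2, belong to the sort itself. Without batch 3, 10 of 12 rose past the threshold in GRP3 (1.71% of genes called, 0.326% higher) and 7 of 12 in PFMP (1.76%, 0.225% higher), and none with all 20 libraries. Prkcb was also at 45.2 RPKM in BNAP/GRP1 1 and at 42.4 in GRP2/MP3 2. Those libraries held 85.1 and 79.5 RPKM of OPC markers and 9237 and 5141 RPKM of microglia markers. B cell markers outside batch 3 summed to 15.7 to 38.6 RPKM in BNAP/GRP1 and 8.95 to 42.5 in GRP2/MP3. They summed to 0.849 to 5.32 in NSC, 0.984 to 6.31 in GRP3 and 2.87 to 4.64 in PFMP. In batch 3 they summed to between 401 and 434, where Prkcb was at 24.3 to 27.6. The part of OPC in the levels of Prkcb, Prkcq and Prkce, and of microglia and B cells in that of Prkcb, was not tested.

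Markers of T cells, in which PKC theta is best known, are given beside Prkcq. They summed to between 3.06 and 14.5 RPKM in GRP3 and PFMP outside batch 3, and 7 of the 9 were at 0 in PFMP 2, where Prkcq was at 27.3 RPKM. In batch 3 they summed to between 122 and 153 RPKM, and Prkcq was at 1.94 to 2.35. In BNAP/GRP1 4, where Prkcq was at 15.4, they summed to 79.1. The part of T cells in the Prkcq level was not tested in any library.

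**Figure D4:**
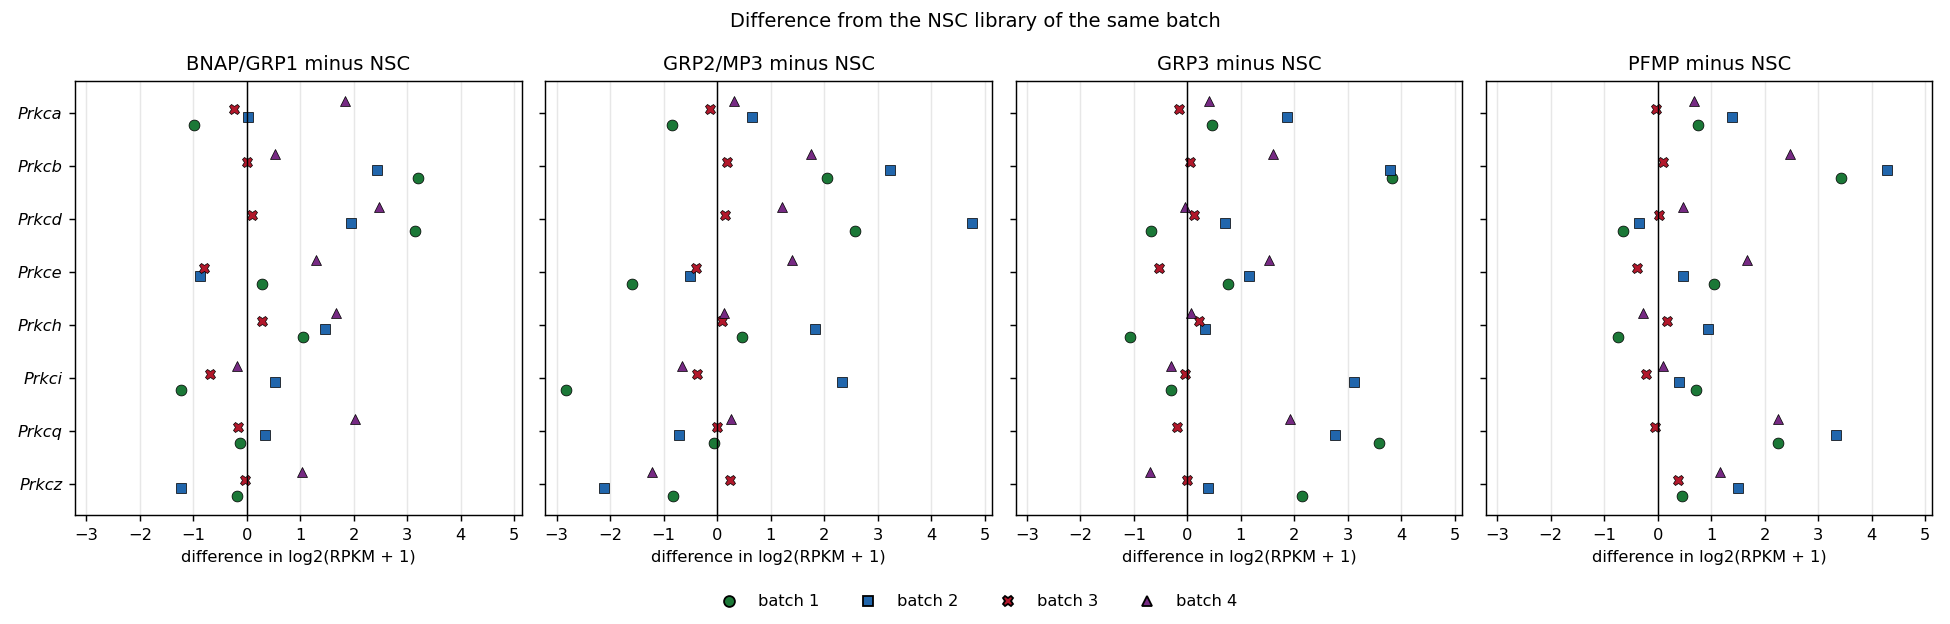
Difference in log2(RPKM + 1) between each progenitor library and the NSC library of its batch (horizontal axis) for the 8 isoforms (rows), in 1 panel per progenitor with symbols for the batch. The Prkcb points lie right of 0 in all 4 panels, the Prkcd and Prkch points in the panels of BNAP/GRP1 and GRP2/MP3, and the batch 3 crosses stay between -0.80 and 0.38.

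The atypical isoforms were not set apart by population alone. Prkci, the isoform of the Par complex in most epithelia, was at 24.6, 3.87, 4.56 and 7.88 RPKM in NSC and at 9.95, 6.06, 2.47 and 6.82 in BNAP/GRP1. It was at 2.60, 23.6, 3.26 and 4.62 in GRP2/MP3, at 19.7, 41.0, 4.36 and 6.17 in GRP3 and at 41.2, 5.44, 3.75 and 8.55 in PFMP. Each population but BNAP/GRP1 had 1 or 2 high libraries, of batch 1 or 2, all ranges overlapped, and the difference from NSC lay between -0.39 ± 0.82 (BNAP/GRP1) and 0.61 ± 0.82 (GRP3, SE).

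Prkcz, whose brain form PKM zeta starts at an inner promoter, was at 2.17, 5.73, 1.61 and 11.6 RPKM in NSC and at 0.798, 0.549, 2.10 and 4.42 in GRP2/MP3. It was at 13.1, 7.83, 1.58 and 6.78 in GRP3, at 3.34, 18.1, 2.39 and 27.1 in PFMP and at 1.79, 1.85, 1.54 and 24.7 in BNAP/GRP1. Without batch 3, GRP3 lay above GRP2/MP3 (8.24% of genes), and no other pair of populations was free of overlap. PFMP exceeded its NSC library in all 4 batches, by 0.46, 1.51, 0.38 and 1.16, and the fitted difference was 0.88 ± 0.86 (SE). The difference in GRP2/MP3 was -0.98 ± 0.86, and batch 3 was the only one in which GRP2/MP3 was the higher. The table gives 1 value for the gene and does not separate its forms.

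The threshold of adjusted p of 0.05 (limma, Benjamini-Hochberg over the 27614 genes tested) was passed by no member in BNAP/GRP1, GRP2/MP3 or GRP3 against NSC, where 0.76%, 1.12% and 1.05% of all genes passed it. In PFMP it was passed by Prkcb, higher, where 1.14% of genes passed in either direction and 0.00362%, Prkcb itself, were higher. In NSC against the mean of the 4 progenitors it was passed by Prkcb, lower (1.98% of genes, 1.96% higher and 0.0217% lower). With the replicate block, in which batch is a term of the model, and likewise without batch 3, Prkcb passed it in GRP3 and PFMP. Of all genes, 2.6% and 2.79% passed with the block (0.275% and 0.185% higher), and 1.71% and 1.76% without batch 3 (0.326% and 0.225% higher). With the block 0.0652% and 0.174% of genes were higher in BNAP/GRP1 and GRP2/MP3, and no member was among them. With the block in NSC against the progenitors 4.14% of genes were higher and 0.225% lower, Prkcb among the latter. With both choices together Prkcb and Prkcq passed in GRP3 (2.51% of genes) and Prkcb in PFMP (2.63%). Since the members were chosen on these contrasts, nothing is read from these counts. The median difference of the 8 members from NSC was 0.34 (BNAP/GRP1), -0.07 (GRP2/MP3), 0.63 (GRP3) and 0.70 (PFMP), beside 0.38, -0.08, 0.05 and -0.20 over all genes tested. The 4 comparisons share the NSC libraries.

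The genes whose pattern was most like that of each member were found by the correlation of log2(RPKM + 1) over the 20 libraries, after the mean of each batch was taken out. These points share batches and depth, and the values are a description. Nearest to Prkcb were Gltp (Pearson r = 0.941), which carries glycolipids, Ywhag (r = 0.922), a 14-3-3 protein, and Etv1 (r = 0.919), an ETS transcription factor. Nearest to Prkcd were 4632428N05Rik, the gene of the immune checkpoint protein VISTA (r = 0.972), Rassf5 (r = 0.971) and Gpr160 (r = 0.971), and nearest to Prkch were Tmem154 (r = 0.945), Samsn1 (r = 0.928), an adaptor of blood cells, and the integrin Itgb3 (r = 0.924). Nearest to Prkcq were Vat1l (r = 0.977), Pdzrn4 (r = 0.975) and the adenosine receptor Adora1 (r = 0.975). For Prkca they were Ctif (r = 0.935), Plxna1 (r = 0.931) and Gatsl2 (r = 0.927), for Prkce Mageh1 (r = 0.928), Zcchc12 (r = 0.916) and Arnt2 (r = 0.914), for Prkci Zmym2 (r = 0.952), Aff4 (r = 0.947) and Pphln1 (r = 0.940), and for Prkcz Amer2 (r = 0.898), Yeats2 (r = 0.894) and Lmcd1 (r = 0.877). Prkcz thus had the least close neighbours of the 8.

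The other genes of the pathway were followed in 8 lists of 89 genes, from phospholipase C down to PKC substrates, of which 86 were tested (Gna14, Dgkk and Card14 did not pass the filter). None passed the threshold in any progenitor against NSC, or in NSC against the 4 progenitors (limma). At an unadjusted p of 0.05, 2 were higher and 3 lower in BNAP/GRP1, and 2 and 5 in GRP2/MP3. For GRP3 these counts were 0 and 5, for PFMP 0 and 4, and for NSC against the progenitors 8 and 0. In both directions together these are 5.81%, 8.14%, 5.81%, 4.65% and 9.30% of the 86 genes, beside 5.90%, 5.79%, 5.62%, 5.88% and 6.87% of all genes tested at the same unadjusted p. With the replicate block 2 fell in BNAP/GRP1 (2.09% of all genes called), 3 in GRP2/MP3 (3.08%), 2 in PFMP (2.79%) and 1 in GRP3 (2.6%). In the same fit 6 were higher and 1 lower in NSC against the progenitors (4.36%). Between progenitors none passed the threshold, as 0.0% of all genes did in each of the 6 contrasts. At an unadjusted p of 0.05 these contrasts held 0.0% to 4.65% of the 86 genes, beside 0.304% to 4.91% of all genes.

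The scaffold Wwc1 (KIBRA), which binds atypical PKC, was the gene of these lists that fell in every progenitor with the block. Its RPKM was 48.9, 114, 12.5 and 54.6 in NSC, 3.58, 11.99, 0.227 and 7.19 in BNAP/GRP1 and 1.98, 2.02, 0.074 and 15.6 in GRP2/MP3. It was 16.0, 9.79, 0.109 and 13.0 in GRP3 and 5.39, 13.6, 0.318 and 14.1 in PFMP. In each batch the NSC library was the highest, and the difference was -3.20, -3.68, -2.64 and -2.79 (each ± 1.04 SE), from BNAP/GRP1 to PFMP in the order above. The adjusted p (limma) was 0.314, 0.121, 0.555 and 0.419 without the block, and 0.0011, 0.000201, 0.00572 and 0.00331 with it, and over all alternatives it ran from 0.000201 to 1. Ependymal markers were, like Wwc1, highest in NSC in each batch. In the fit without the block all 8 of them fell past the threshold in BNAP/GRP1, GRP3 and PFMP (0.76%, 1.04% and 1.14% of all genes fell), and 7 of 8 in GRP2/MP3 (1.12%), and their part in the Wwc1 level was not tested.

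The atypical PKC polarity partners, 15 genes from Par3 to Crumbs and Numb, had medians of -0.38, -0.83, -0.36 and -0.50 in the 4 progenitors, in the order above. With the block Crb2, a Crumbs protein of the apical membrane, fell in GRP2/MP3 (-1.97, adjusted p = 0.0399, limma, against 0.439 without the block and 0.0235 to 1 over the alternatives) and in PFMP (-2.22, adjusted p = 0.02, limma, against 0.291, and 0.02 to 0.821). It was at 2.19, 4.96, 1.11 and 15.2 RPKM in NSC, at most 1.90 in GRP3, 1.45 in GRP2/MP3 and 0.179 in PFMP, and in BNAP/GRP1 at 12.1 in batch 4 against 0.182 or less in batches 1 to 3. Fez1, a scaffold that binds PKC zeta, fell with the block in BNAP/GRP1 and GRP2/MP3 (-3.55 and -3.68, adjusted p = 0.011 and 0.00644, limma, against 0.866 and 0.912, and up to 0.99 and 1 over the alternatives). It was at 350, 412, 32.0 and 570 RPKM in NSC, at 35.2, 41.8, 0.836 and 49.96 in BNAP/GRP1 and at 5.02, 26.0, 0.808 and 341 in GRP2/MP3, where the batch 4 library lay near the NSC libraries. In GRP3 and PFMP outside batch 3, Fez1 was at 152 to 243 and at 175 to 644 RPKM. Ependymal markers summed to at most 58.6 and 63.1 RPKM there. These markers were highest in NSC in each batch, as Crb2 was, and their part in Crb2 and Fez1 was not tested.

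Among the substrates, Plek (pleckstrin) and Ncf1 (a subunit of the phagocyte oxidase) were high in the batch 3 libraries and in BNAP/GRP1 and GRP2/MP3 1 and 2. The microglia markers given above were high in the same libraries, and their part was not tested. Ncf1 was at 0.709, 0.489, 89.4 and 1.39 RPKM in NSC, at 67.0, 16.3, 105 and 11.1 in BNAP/GRP1, at 57.2, 98.1, 97.8 and 3.57 in GRP2/MP3 and at most 1.36 in GRP3 and 0.86 in PFMP outside batch 3. Without batch 3 it rose in GRP2/MP3 (4.03, adjusted p = 0.0404, limma), and with all 20 libraries it did not pass (3.05, adjusted p = 1, limma, and 0.0237 to 1 over the alternatives). Plek differed by 3.15 in BNAP/GRP1 and 3.43 in GRP2/MP3 and passed in neither (adjusted p = 0.866 and 1, limma). Gap43, the growth cone substrate, was at 877, 1162, 1.60 and 723 RPKM in GRP3 and at 1201, 1008, 22.5 and 1558 in PFMP. It was at 127, 74.6, 17.8 and 68.7 in NSC. Outside batch 3 it ran from 59.2 to 260 in BNAP/GRP1 and from 42.4 to 955 in GRP2/MP3. The highest GRP2/MP3 value thus lay within the GRP3 range. Gap43 did not pass in PFMP (2.94, adjusted p = 1, limma) unless batch 3 was left out with the block (3.82, adjusted p = 0.0426, limma).

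Upstream of the kinases, the 17 tested phospholipase C and Gq genes had no member past the threshold. The G protein subunit Gna15 had the largest difference, 2.33 ± 1.00 in BNAP/GRP1 (SE, adjusted p = 0.756, limma). Of the other genes that diacylglycerol recruits, Rasgrp1, an activator of Ras, differed by -1.92 ± 0.69 in GRP3 (SE, adjusted p = 0.416, limma). The diacylglycerol kinase Dgkz differed by at most 1.39 and the protease Malt1 of the CARD complex by at most 0.88.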

How the data were processed

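RNA of sorted cells was amplified as polyA aRNA, which favours the 3′ end of transcripts, and sequenced on a NextSeq500. The submitters' processing notes name FastQC 0.11.9, cutadapt 3.4, STAR 2.6.1, Salmon 1.9.0 and GRCm38. The authors deposited RPKM values, and the gene lengths, read totals and strand setting behind them are not given in the sources used here. The 26 further columns of the table are empty and were not used. Depth was therefore estimated from ratios of low values with GENCODE vM21 exon lengths, and covers counting error only.

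The members and lists were chosen with earlier results of these data known. Genes of at least 1 RPKM in at least 4 of 20 libraries (27614) were fitted as log2(RPKM + 1) in limma 3.58.1 (R 4.3.3), with 1 mean per population, all 20 libraries and a trended prior, with Benjamini-Hochberg adjustment over all of them (threshold 0.05). Steps were tested on simulated data. Summaries and figures used Python 3.11.15 and matplotlib 3.10.9.

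Named are the 8 members, pathway genes past the threshold in a progenitor or else the largest difference of each list, the 3 nearest genes of each member and the leading markers. Of these, pathway genes that passed only under an alternative were named after their values were seen, and 2 genes that the rule names are not reported here. Litters were pooled, and the spread is that between batches. Batch numbers come from the labels and pair the libraries: after population means were removed, the median correlation within batches 1 to 4 was 0.337, 0.262, 0.769 and 0.581 (lowest 0.0341), and -0.254 between batches. The authors' methods name no batch term, so the replicate block was an alternative, as were a pseudocount of 0.1, no filter, a mean of at least 5 RPKM, median-of-ratios scaling, quantile normalization, no trend, only the compared populations, each library left out, and batch 3 left out.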

Additional observations from a re-analysis of the deposited data

Results flagged for a closer look

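In 4 of the 40 sets of 4 libraries (8 isoforms in 5 populations) 1 library lay far from the other 3 on the log2 scale by Dixon's criterion, which chance meets in about 1 of 20 sets. Prkcd was at 92.5 RPKM in NSC 3 and at 100.4 RPKM in GRP3 3, against at most 3.98 in the other NSC and 3.43 in the other GRP3 libraries. Prkch was at 7.92 RPKM in PFMP 3, against at most 1.17 in the other PFMP libraries. All 3 are batch 3 libraries. Prkcz was at 24.7 RPKM in BNAP/GRP1 4, the library of least depth, where the 3 others of BNAP/GRP1 did not exceed 1.85.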

How the results depend on the processing

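The 32 differences of the members from NSC moved by less than 1 SD under the alternatives tried (0 of 956 values moved further), and no isoform share moved further (0 of 200). This is a wide bar. Prkcd ran from -1.18 to 1.20 in GRP3 and from 1.35 to 3.10 in BNAP/GRP1 and still counted as not moved. Its standard error was 1.34 with batch 3 and 0.78 without, so the count says little on how stable it was. Signs held under all alternatives for Prkcb in the 4 progenitors (1.22 to 3.40), Prkcd and Prkch in BNAP/GRP1 and GRP2/MP3, and Prkcq and Prkce in GRP3 and PFMP. They also held for Prkca in GRP3 and PFMP, Prkci in GRP3, and Prkcz in GRP2/MP3, GRP3 and PFMP. A sign that held therefore includes differences of less than 1 standard error, as for Prkca. The sign of Prkcd in GRP3 and PFMP changed with the setting.

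Of the pathway genes, none passed the threshold under the design as set. With the replicate block, 2 fell in BNAP/GRP1 and 3 in GRP2/MP3, as did 1 in GRP3 and 2 in PFMP, and 6 were higher and 1 lower in NSC against the progenitors. Without batch 3, 1 fell in BNAP/GRP1 (1.03% of all genes fell), 1 rose and 1 fell in GRP2/MP3 (0.308% and 1.51%), and 1 was higher in NSC (2.37%). With both choices, 1 rose and 1 fell in BNAP/GRP1, 3 rose and 2 fell in GRP2/MP3, and 1 rose in PFMP (2.63% of all genes called in either direction). In the same fit 2 were higher and 1 lower in NSC, and 1 differed between PFMP and GRP2/MP3. Quantile normalization gave 1 fall each in GRP2/MP3, GRP3 and PFMP and 1 gene higher in NSC, as did the stricter filter and median-of-ratios scaling for NSC (1 each). Leaving out each library in turn gave 0 to 1 fall in GRP2/MP3 (1 without NSC 3 or GRP2/MP3 4) and in PFMP (1 without BNAP/GRP1 4), and 0 to 4 genes higher in NSC (4 without BNAP/GRP1 4, 1 without NSC 3 or GRP2/MP3 4). Where no share of all genes is given here or above, the counts are read no further. The cause of these changes was not tested. Depth limits the lowest values most, as for Prkch in NSC 2.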

Other observations

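The isoforms fell into sets by how they varied over the 20 libraries once batch means were removed, given here as a description over libraries that share batches and depth. Prkcd and Prkch varied together (Pearson r = 0.840, Spearman rho = 0.759), as did Prkcq and Prkcz (r = 0.824, rho = 0.723) and Prkca and Prkcq (r = 0.762, rho = 0.771). Prkcd ran against Prkcz (r = -0.610, rho = -0.598) and Prkcq (r = -0.579, rho = -0.544). Prkcb, the isoform with the highest level in 9 of the 15 libraries outside batch 3, had r = 0.0266 with Prkcd and 0.605 with Prkcq.

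Values of 2 further pathway genes follow. Rasgrp3, a Ras activator with a diacylglycerol-binding domain, was at 68.1, 12.9, 10.8 and 6.65 RPKM in BNAP/GRP1 and at 37.6, 74.3, 10.5 and 6.21 in GRP2/MP3, and at most 1.39 in GRP3 and 0.638 in PFMP outside batch 3. NSC, at 10.6, 1.32, 7.76 and 4.83, overlapped both BNAP/GRP1 and GRP2/MP3. Microglia markers were high in the same BNAP/GRP1 and GRP2/MP3 libraries, and their part was not tested. The anchoring protein Akap12 was at 0.668, 0.535, 0.221 and 1.68 RPKM in NSC, below the progenitor library of its batch in batches 1, 2 and 4, and passed the threshold with the replicate block, lower in NSC against the progenitors.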
